A study of Homo sapiens with 4 samples.

Results

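Aminoacyl-tRNA synthetases were followed after exposure to the compound Neoribocic in MDA-MB-231, an established line of human breast cancer cells. The members are 35 synthetase genes taken by symbol from a table of 20263 human genes, 19 for cytosolic enzymes (symbols ending in 1, with FARSA and FARSB) and 16 for mitochondrial enzymes (symbols ending in 2). All 35 passed the filter on low counts, which kept 13879 genes. Cells given the solvent DMSO were compared with cells given Neoribocic, at 2 libraries a group. Cells of both groups were cultured with 10% serum for 24 h, and each library was made from 1.4 µg of total RNA. The treatment text names the agent Rib_CA and the sample names say Neoribocic, which were read as the same treatment, and the sources used here give no dose. Whether replicates came from separate cultures is not labelled. The p-values therefore reflect the spread among these 4 libraries alone, and that spread may be technical.

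A synthetase joins an amino acid to the tRNAs that carry its anticodons, and so sets the supply of charged tRNA for translation. Mammalian cells run translation in the cytosol and inside mitochondria, and for most amino acids a separate nuclear gene supplies each compartment. GARS1 and KARS1 make both forms from the same gene, and EPRS1 is a bifunctional cytosolic enzyme for glutamate and proline. Several cytosolic enzymes sit together in a large multi-synthetase complex. The transcription factor ATF4, which is translated when amino acids run short or the endoplasmic reticulum is stressed, is known to raise the mRNAs of many cytosolic synthetases through C/EBP-ATF response elements.

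That element can be read in some of the members' own promoters. The sites of every member with a match are shown, and these members did not change alike. The 250 bases before each RefSeq gene start (GRCh38.p14) were searched on both strands for TGATGNAA, whose reverse complement is TTNCATCA. Windows were found for 30 members, 16 cytosolic and 14 mitochondrial, and 9 of these had several starts. LARS1, VARS1, YARS1, AARS2 and VARS2 were not matched. A match lay in 4 members. Each is printed below as 30 bases, 5′ to 3′ on the gene's own strand, with the match in capitals.
AARS1: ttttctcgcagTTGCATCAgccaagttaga
IARS1: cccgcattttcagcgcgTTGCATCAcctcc
GARS1: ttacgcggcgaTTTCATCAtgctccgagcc
YARS2: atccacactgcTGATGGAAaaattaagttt
They lie at chr16:70289675-70289704 (minus strand) for AARS1, chr9:92293698-92293727 (minus) for IARS1, chr7:30594834-30594863 (plus) for GARS1 and chr12:32756076-32756105 (minus) for YARS2. The matches start 187, 13, 33 and 197 bases before the respective gene start, counted for GARS1 from the further downstream of its 2 starts. AARS1 and IARS1 hold the same 8 letters, yet AARS1 rose and IARS1 fell, while GARS1 and YARS2 did not pass the test (values below). Over all 35116 windows of this length in the table, 3.14% hold a match, and 2.33% of the 11039 tested genes with a window do. A match is a run of letters and not a measured binding site.

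The libraries held 34774542 and 37754168 counts (DMSO replicates 1 and 2) and 41572094 and 43014212 counts (Neoribocic replicates 1 and 2). The 13 genes encoded by the mitochondrial genome took 21.7% of counts in DMSO replicate 2 and 5.76% to 8.68% in the other 3 libraries. Log2 levels correlated at 0.976 and 0.981 between replicates and at 0.900 to 0.928 between groups. DMSO replicate 1 was above replicate 2 for 17 of 19 cytosolic and 10 of 16 mitochondrial synthetases, against 55.1% of all tested genes. The markers fixed as high in the line were present in DMSO, with means of 3870 CPM for VIM, 2800 for MSN, 1720 for AXL, 597 for CAV1 and 528 for CD44. CAV1 (-1.42), AXL (-0.60) and CD44 (-0.58) were called lower with Neoribocic. Of the markers fixed as near 0, CDH1 stood at 0 to 0.141 CPM and ESR1 at 0.168 to 0.649 CPM in all libraries. PGR, the progesterone receptor, had 1.44 and 1.77 CPM in DMSO against 0.282 and 0.758 CPM and was called lower (-1.61). Among the markers of other cells, CDH5 was at 0 and PTPRC and PECAM1 at no more than 1.16 CPM in all libraries, while EPCAM stood at 9.31 to 9.93 and GATA3 at 8.22 to 21.8 CPM. Levels below are CPM, counts scaled to a common library size with TMM factors, and a change is a log2 fold change of Neoribocic minus DMSO ± SE, called when the adjusted p of edgeR's quasi-likelihood test was below 0.05 over all tested genes.

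The cytosolic synthetases split. With Neoribocic 4 of the 19 rose (SARS1, AARS1, YARS1 and VARS1), 5 fell (EPRS1, IARS1, FARSB, LARS1 and RARS1) and 10 did not pass the test, with a median log2 change of 0.26. Among all tested genes 19.1% were called higher and 21.3% lower, with a median of 0.01, so the members were called in either direction at about the share of all genes. The mitochondrial synthetases gave 3 rises (HARS2, VARS2 and PARS2), 2 falls (LARS2 and IARS2) and 11 that did not pass, with a median of 0.12. The falls of the cytosolic genes were all past 2-fold, and SARS1 and HARS2 were the members that rose past it.

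**Figure D1:**
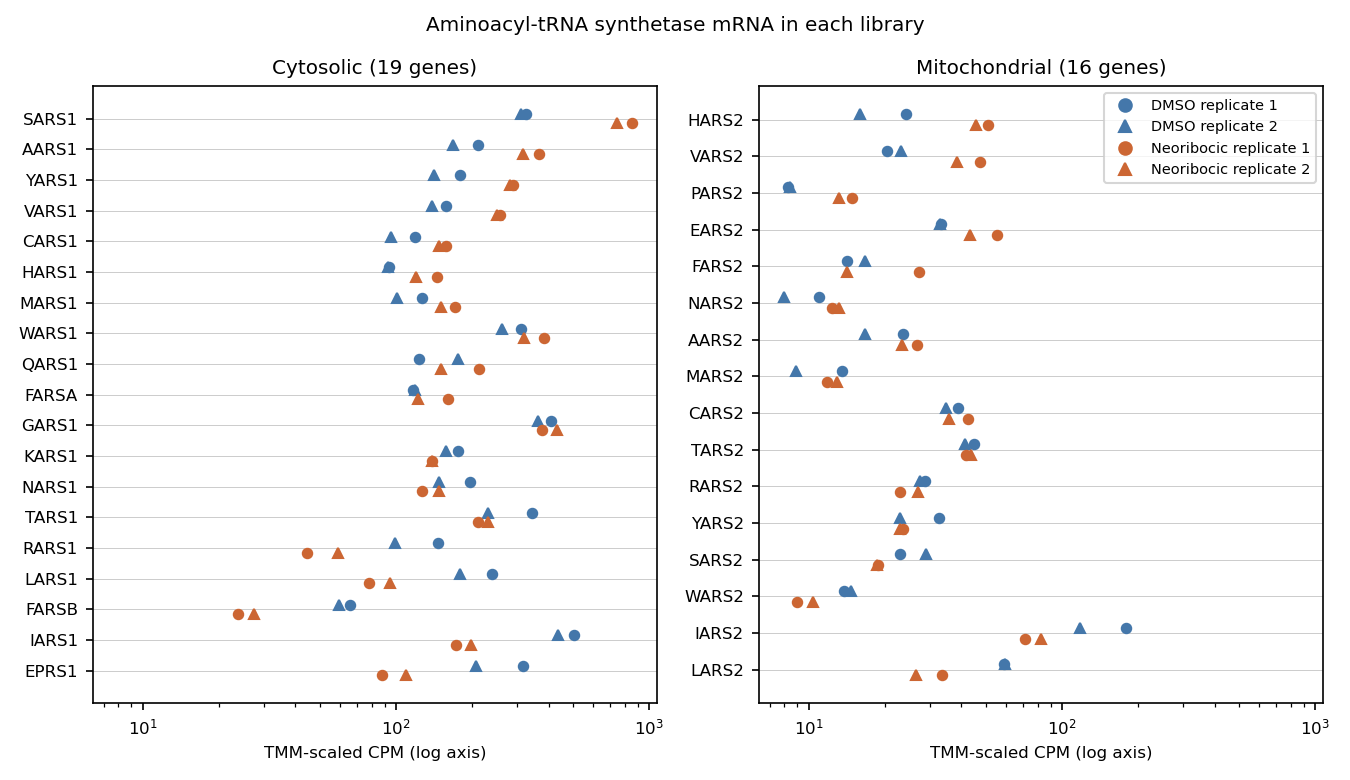
Level of each synthetase in each library, as TMM-scaled CPM on a log axis. Blue marks are DMSO and orange marks Neoribocic, with circles for replicate 1 and triangles for replicate 2. The lowest 5 rows of the cytosolic panel show both Neoribocic libraries well below both DMSO libraries, and SARS1 at the top shows the reverse.

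SARS1, which charges serine tRNA and also the tRNA that carries selenocysteine, stood at 326 and 310 CPM in DMSO and at 851 and 748 CPM with Neoribocic. Both treated libraries were far above both controls, a change of 1.33 ± 0.19 (edgeR, adjusted p = 0.00172). AARS1, the alanine enzyme, had 211 and 168 CPM in DMSO against 365 and 317 CPM. Its change was 0.85 ± 0.20 (adjusted p = 0.0124). YARS1, the tyrosine enzyme, went from 179 and 141 CPM to 290 and 282 CPM, a change of 0.84 ± 0.20 (adjusted p = 0.0115). VARS1, the valine enzyme, went from 158 and 138 CPM to 258 and 250 CPM, a change of 0.78 ± 0.19 (adjusted p = 0.0119). For all 4 genes the groups did not overlap. The 3 smaller rises kept most of their size but not their calls in some fits that left 1 library in a group. Without Neoribocic replicate 1 the changes were 0.75 for AARS1, 0.83 for YARS1 and 0.77 for VARS1 (adjusted p = 0.0801, 0.0618 and 0.0652). Without DMSO replicate 2 they were 0.70, 0.69 and 0.70 (adjusted p = 0.0654, 0.0605 and 0.0585).

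The 5 falls were of nearly equal size, from -1.41 to -1.24. EPRS1, the glutamate and proline enzyme, stood at 317 and 206 CPM in DMSO and at 88.1 and 109 CPM with Neoribocic, a change of -1.41 ± 0.25 (edgeR, adjusted p = 0.00387). IARS1, the isoleucine enzyme, went from 506 and 435 CPM to 172 and 197 CPM, a change of -1.35 ± 0.20 (adjusted p = 0.00173). LARS1, the leucine enzyme and known also as a leucine sensor for mTORC1, went from 239 and 178 CPM to 78.1 and 94.2 CPM. Its change was -1.27 ± 0.22 (adjusted p = 0.0034). In each of these genes the higher treated library was still below the lower control.

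FARSB encodes the beta subunit of the cytosolic phenylalanine enzyme, whose alpha subunit is FARSA. FARSB went from 65.7 and 59.4 CPM to 23.7 and 27.5 CPM, a change of -1.29 ± 0.21 (adjusted p = 0.00286). FARSA had 117 and 119 CPM in DMSO and 160 and 122 CPM with Neoribocic, 0.26 ± 0.20 (adjusted p = 0.332). The mRNAs of the enzyme's subunits had changes of opposite sign in this fit. That of FARSA was not called, and the difference between the subunits was not tested. In a fit with length and GC offsets, described further on, both were called lower (FARSA -0.46, FARSB -0.89). RARS1, the arginine enzyme, went from 146 and 98.7 CPM to 44.5 and 59.1 CPM, a change of -1.24 ± 0.25 (adjusted p = 0.00676). Without Neoribocic replicate 1 its change was -1.04, which was not called (adjusted p = 0.0585).

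The other 10 cytosolic genes had changes between -0.38 and 0.51. CARS1 (0.51), HARS1 (0.50) and MARS1 (0.50), for cysteine, histidine and methionine, had adjusted p-values of 0.0685, 0.0668 and 0.0774, and in each both treated libraries were above both controls. With other scalings (library totals, or upper quartiles) CARS1 and HARS1 passed, and MARS1 passed with upper quartiles. WARS1 (tryptophan) had 0.30, QARS1 (glutamine) 0.27, NARS1 (asparagine) -0.32 and TARS1 (threonine) -0.38. The genes that serve both compartments did not pass the test. GARS1, the glycine enzyme, had 408 and 364 CPM in DMSO and 376 and 433 CPM with Neoribocic, and the groups overlapped (0.07 ± 0.19, adjusted p = 0.806). KARS1, the lysine enzyme, had 176 and 157 CPM against 138 and 139 CPM (-0.27 ± 0.18, adjusted p = 0.267).

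Of the 5 falls, 4 were in members of the multi-synthetase complex. Of its 7 synthetases, 4 fell (EPRS1, IARS1, LARS1 and RARS1) and 3 did not pass (MARS1, QARS1 and KARS1), with a median change of -1.24. Of the 12 cytosolic genes outside the complex, 4 rose, 1 fell (FARSB) and 7 did not pass, with a median of 0.40. For comparison, 19.1% of all tested genes were called higher and 21.3% lower. Of the genes for the scaffold proteins of the complex, AIMP1 had a change of -0.11, AIMP2 -0.27 and EEF1E1 0.58, and none passed the test. AIMP2 was called lower (-0.81, adjusted p = 0.0184) in a fit with length and GC offsets, which is described further on. The median GC content of the principal transcripts was 43.6% for the complex members and 52.9% for the other 12. Its part in the contrast was not tested, and no test of the contrast itself was made. By catalytic class, 2 of 10 cytosolic class I genes rose and 4 fell, against 2 and 2 of 10 in class II, with EPRS1 in both.

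The mRNAs of ATF4 and of genes known to respond to it were measured in the same libraries. ATF4 mRNA had 405 and 373 CPM in DMSO and 786 and 549 CPM with Neoribocic, a change of 0.78 ± 0.23 (edgeR, adjusted p = 0.0252). Of 20 reference genes of the ATF4 response, ATF4 included, 19 rose and 1 fell (VLDLR, -0.60), with a median of 1.46. ASNS, the asparagine synthetase that makes the amino acid itself, rose by 0.92 ± 0.19, TRIB3 by 3.04 ± 0.41 and CHAC1 by 3.95 ± 0.39. Of the 12 cytosolic synthetases that are often listed as ATF4 targets, 3 rose (SARS1, AARS1 and YARS1), 3 fell (EPRS1, IARS1 and LARS1) and 6 did not pass, with a median of 0.18. Of the 7 cytosolic genes not so listed, 1 rose (VARS1), 2 fell (FARSB and RARS1) and 4 did not pass, with a median of 0.26. Over all tested genes 19.1% were called higher and 21.3% lower, and 3 of 12 listed synthetases in each direction is near those shares. Both lists were written with earlier results of these data known, and the rise of the reference genes is not independent support for a response through ATF4.

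**Figure D2:**
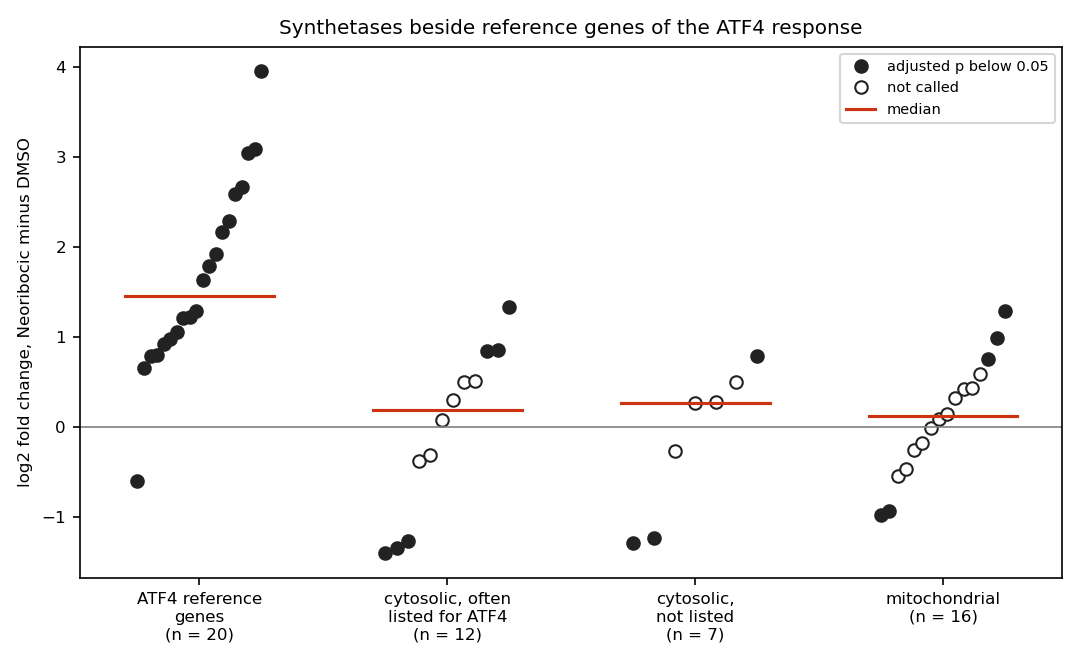
Log2 fold change of each gene in 4 sets (ATF4 reference genes, cytosolic synthetases often listed as ATF4 targets, the other cytosolic synthetases, and mitochondrial synthetases). Each point is a gene, filled where the adjusted p was below 0.05, and lines are medians, at 1.46, 0.18, 0.26 and 0.12 from left to right.

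The mitochondrial rises were led by HARS2, the histidine enzyme of mitochondria. It had 24.1 and 15.9 CPM in DMSO and 51.1 and 45.7 CPM with Neoribocic, without overlap, a change of 1.28 ± 0.26 (edgeR, adjusted p = 0.0064). The starts of HARS2 and its cytosolic neighbour HARS1 lie 84 bases apart on opposite strands in RefSeq. HARS1 had 93.6 and 93.2 CPM in DMSO and 145 and 120 CPM with Neoribocic, 0.50 ± 0.19 (adjusted p = 0.0668). In GENCODE 29, 11.7% of the exon bases of HARS2 overlap HARS1 on the other strand, and 4.07% overlap ZMAT2 on the same strand. The strand setting of the authors' counting was not given, so reads from the overlap with HARS1 cannot be told apart. How reads in the overlap with ZMAT2 were counted was not given either.

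VARS2, the mitochondrial valine enzyme, had 20.3 and 23.1 CPM in DMSO and 47.2 and 38.6 CPM with Neoribocic, a change of 0.98 ± 0.23 (adjusted p = 0.0106). It rose together with VARS1, so valine was the amino acid for which the genes of both compartments were called higher. GTF2H4 overlaps 22.0% of the exon bases of VARS2 on the same strand. PARS2, the mitochondrial proline enzyme, had 8.23 and 8.42 CPM against 14.8 and 13.2 CPM, a change of 0.75 ± 0.24 (adjusted p = 0.0343). With any library left out, PARS2 had changes of 0.67 to 0.83 that were not called (adjusted p 0.0789 to 0.168). VARS2 had 0.89 without DMSO replicate 1 and 0.84 without Neoribocic replicate 1, and neither was called (adjusted p = 0.0569 and 0.0710).

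LARS2, the mitochondrial leucine enzyme, had 59.1 and 59.3 CPM in DMSO and 33.4 and 26.5 CPM with Neoribocic, a change of -0.98 ± 0.22 (edgeR, adjusted p = 0.00892). IARS2, the mitochondrial isoleucine enzyme and per kb the highest of the 16 in DMSO, had 179 and 118 CPM against 71.4 and 82.8 CPM, a change of -0.94 ± 0.24 (adjusted p = 0.0159). For leucine and isoleucine the cytosolic and the mitochondrial gene were thus both called lower. Without Neoribocic replicate 2 LARS2 had -0.82, which was not called (adjusted p = 0.0522). IARS2 had -0.83 without Neoribocic replicate 1 (adjusted p = 0.110) and a smaller change, -0.61, without DMSO replicate 1 (0.0936), and neither was called. Of the mitochondrial genes by class, 1 of 9 in class I rose and 2 fell, and 2 of 7 in class II rose. The shares over all tested genes were 19.1% called higher and 21.3% called lower.

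The other 11 mitochondrial genes had changes between -0.55 (WARS2) and 0.58 (EARS2). EARS2 charges glutamate in mitochondria, where no separate glutamine enzyme is used and an amidotransferase completes the glutamine tRNA. It had 33.2 and 32.8 CPM in DMSO and 55.4 and 43.2 CPM with Neoribocic (adjusted p = 0.0663). FARS2, for phenylalanine, had 14.1 and 16.6 CPM against 27.3 and 14.2 CPM, so its treated libraries stood apart from each other (0.43 ± 0.33, adjusted p = 0.312). SARS2, for serine, had 22.8 and 29.1 CPM against 18.7 and 18.6 CPM (-0.47 ± 0.23, adjusted p = 0.133). In GENCODE 29, 46.2% of the exon bases of SARS2 overlap another gene model on the same strand, so its counts are uncertain. AARS2 (0.32), NARS2 (0.42), MARS2 (0.14), CARS2 (0.09), TARS2 (-0.02), RARS2 (-0.18) and YARS2 (-0.26) did not pass either.

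Both treated libraries lay above both controls for 9 cytosolic genes and below for 7, with 3 overlapping. For the mitochondrial genes the counts were 5, 5 and 6. Among all tested genes 37.8% were separated upward and 37.3% downward. The share of cytosolic members with separated groups (16 of 19) and that of mitochondrial members (10 of 16) thus lie on either side of the share of all genes.

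Setting each cytosolic gene against its mitochondrial counterpart gives a ratio that does not depend on the scaling of libraries. There were 17 such pairs over 16 amino acids, with EPRS1 in 2 pairs and FARS2 in 2. The log2 ratio of cytosolic to mitochondrial counts rose without overlap in 6 pairs, fell without overlap in 8 and overlapped in 3, with a median change of -0.27. For single genes, 37.8% of all tested were separated upward and 37.3% downward, and no such share was computed for gene pairs in general. The exact two-sided permutation test gave p = 0.333 for each separated pair, the smallest that 2 libraries against 2 allow, and 0.404 after Benjamini-Hochberg adjustment over the 17 pairs, so no shift of ratio could pass.

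Serine showed the largest rise of the ratio: SARS1 over SARS2 was 3.84 and 3.41 in DMSO and 5.51 and 5.33 with Neoribocic, a difference of 1.79. The counts of SARS2 in this ratio are uncertain, as 46.2% of its exon bases overlap another gene model on the same strand. Tyrosine followed, with YARS1 over YARS2 at 2.46 and 2.62 against 3.63 and 3.63. Tryptophan (0.85), alanine (0.52), cysteine (0.43) and methionine (0.33) also had higher ratios in both treated libraries.

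Proline and glutamate showed the largest drops, and both contain EPRS1. EPRS1 over PARS2 was 5.27 and 4.62 in DMSO and 2.58 and 3.04 with Neoribocic, a difference of -2.13. EPRS1 over EARS2 was 3.25 and 2.65 against 0.67 and 1.33, a difference of -1.95. FARSB over FARS2 was 2.22 and 1.84 against -0.20 and 0.95, so in Neoribocic replicate 1 the mitochondrial gene had more counts than FARSB. Arginine (-1.04), histidine (-0.81), asparagine (-0.75), isoleucine (-0.44) and threonine (-0.34) had lower ratios without overlap. For histidine both genes had positive changes, and that of HARS2 was the larger. Leucine (-0.27), valine (-0.19) and the FARSA pair (-0.12) overlapped.

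**Figure D3:**
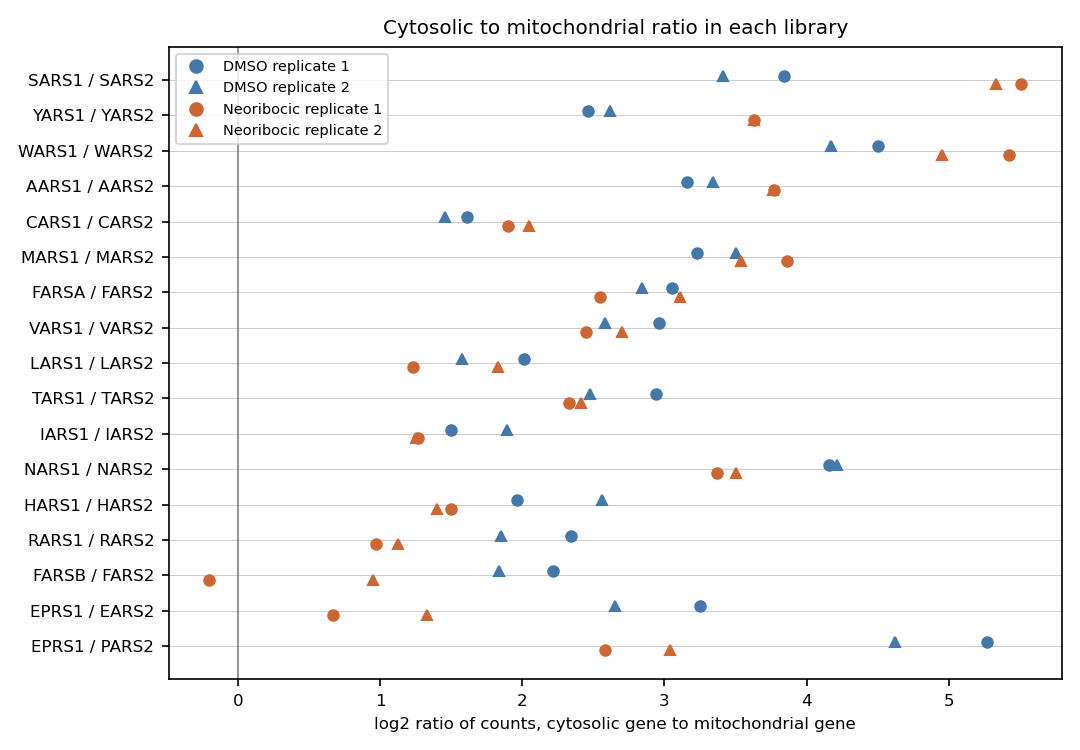
Log2 ratio of the counts of each cytosolic gene to those of its mitochondrial counterpart, in each library, for 17 pairs. Blue marks are DMSO and orange marks Neoribocic, with circles for replicate 1 and triangles for replicate 2, and the pairs are ordered by the change, from 1.79 (SARS1 to SARS2, top) to -2.13 (EPRS1 to PARS2, bottom).

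Levels between genes are compared here per kilobase of the principal transcript. In DMSO the cytosolic genes had a median of 54.5 CPM per kb (18.6 for FARSB to 172 for SARS1) and the mitochondrial genes 8.71 (3.55 for PARS2 to 41.6 for IARS2), and in all 17 pairs the cytosolic gene was the higher. With Neoribocic the medians were 57.0 and 10.7 CPM per kb. The spread among the cytosolic genes was wider, from 7.60 for FARSB to 432 for SARS1. Summed over all members, cytosolic CPM was 7.33 and 7.29 times mitochondrial CPM in the DMSO libraries and 8.35 and 8.58 times in the Neoribocic libraries, a higher ratio in both treated libraries that 2 libraries a group cannot take below p = 0.333 in an exact permutation test. SARS1 alone contributed 851 of 4252 summed cytosolic CPM in Neoribocic replicate 1, against 326 of 4161 in DMSO replicate 1.

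GC content moved with these changes. Across all 13862 genes with a length and GC value, log2 changes had a Spearman correlation of 0.45 with GC content and -0.40 with transcript length (a description over genes, which are not independent replicates). Across the 19 cytosolic members the correlation with GC content was 0.79, and across the 16 mitochondrial members 0.31. The 5 cytosolic genes that fell had transcripts of 41.4% to 43.6% GC and the 4 that rose 52.5% to 62.6%. The median change of all tested genes ran from -0.54 in the tenth of genes with the least GC to 0.64 in the tenth with the most. The part of GC content in the members' changes was not tested beyond the values given here.

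**Figure D4:**
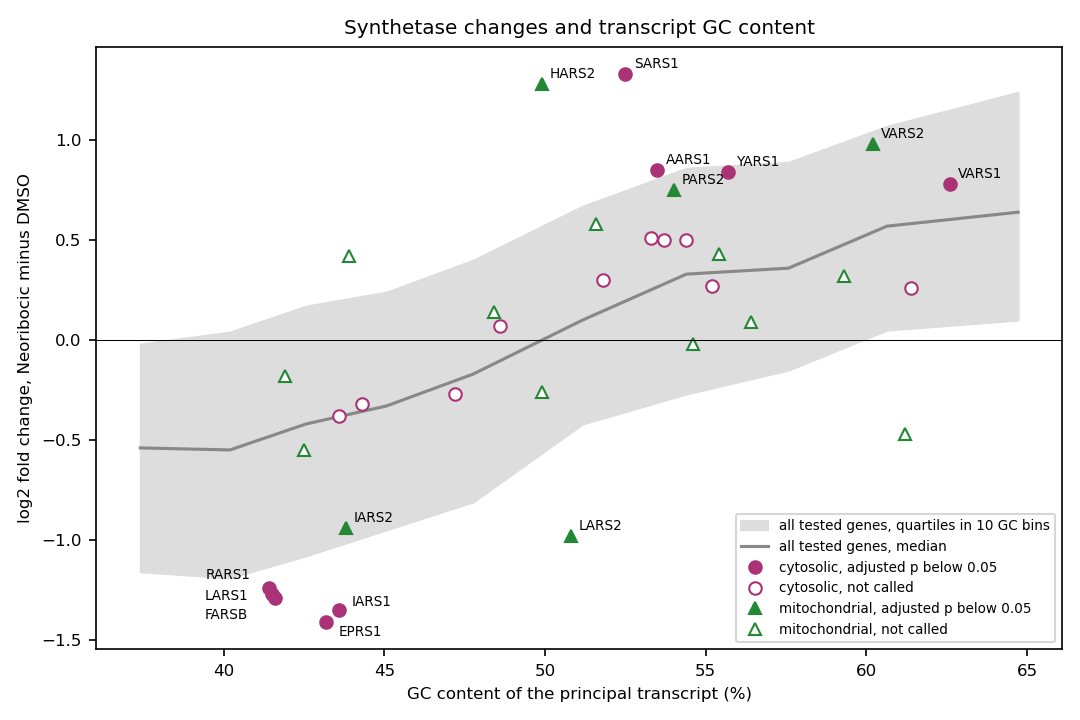
Log2 fold change of each synthetase against the GC content (%) of its principal transcript, circles for cytosolic and triangles for mitochondrial genes, filled where the adjusted p was below 0.05. The grey line and band are the median and quartiles of all tested genes in 10 bins of GC content, whose medians run from -0.54 to 0.64, and the 5 fallen cytosolic genes lie together at 41.4% to 43.6% GC below the band.

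When a smooth trend over length and GC content was taken out of each library (offsets in the edgeR fit), 16.3% of 13862 genes were called higher and 19.2% lower. Of the cytosolic genes 2 stayed higher, SARS1 (0.90, adjusted p = 0.00754) and AARS1 (0.65, 0.0375), while YARS1 (0.58, 0.0571) and VARS1 (0.35, 0.127) were not called. All 5 falls were called with smaller sizes: RARS1 -1.04, FARSB -0.89, EPRS1 -0.79, IARS1 -0.78 and LARS1 -0.69. FARSA was called lower in that fit (-0.46, adjusted p = 0.0363) and had the opposite sign without it, so its direction was not settled. The complex members gave 4 falls, with a median of -0.69, and the other 12 gave 2 rises and 2 falls, with a median of 0.15. The listed ATF4 targets gave 2 rises and 3 falls, the cytosolic genes not so listed 3 falls, and the reference genes 16 rises. ATF4 itself (0.33, adjusted p = 0.192) was not called in it.

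Of the mitochondrial genes HARS2 (1.21, adjusted p = 0.0153), VARS2 (0.61, 0.0276) and LARS2 (-0.88, 0.0155) kept their calls in the offset fit, and PARS2 (0.37, 0.143) and IARS2 (-0.51, 0.0860) lost them. NARS2 was called higher (0.67, 0.0448) and SARS2 lower (-1.12, 0.00878). In that fit the pair ratios changed by 2.02 for serine, -1.32 for EPRS1 over EARS2, -1.16 for EPRS1 over PARS2 and -1.08 for histidine. Threonine (0.51) and leucine (0.19) turned positive and methionine (-0.03) negative.

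**Figure D5:**
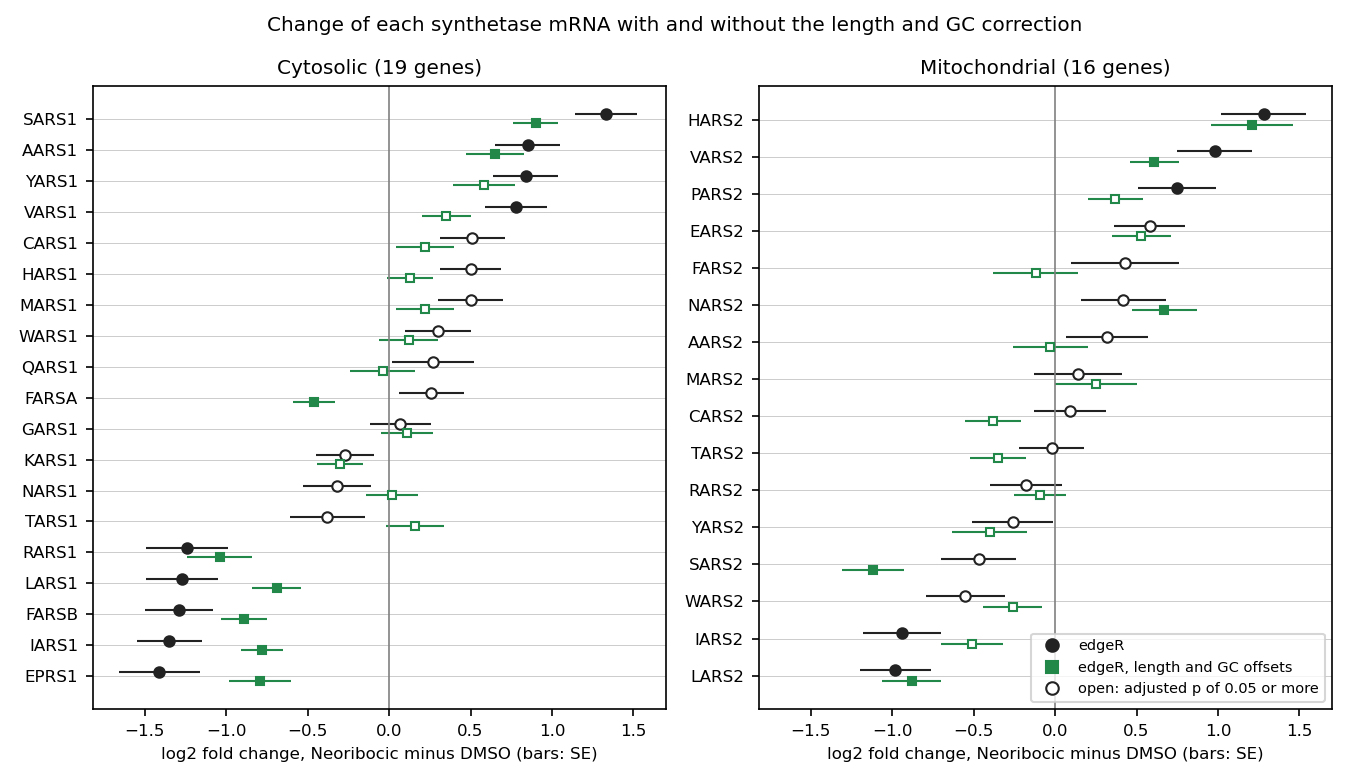
Log2 fold change (Neoribocic minus DMSO) of each synthetase in the edgeR fit (black circles) and in the fit with length and GC offsets (green squares), with bars for the SE and open symbols where the adjusted p was 0.05 or more. The 5 fallen cytosolic genes move toward 0 with the offsets but stay filled, and FARSA changes side from 0.26 to -0.46.

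The 13 partner genes build the complex or act on charged tRNA, apart from TARS3, a relative of the threonine enzyme. Of these, 2 rose, 1 fell and 10 did not pass the test, against 19.1% of all tested genes called higher and 21.3% lower. With the offsets 4 rose and 2 fell, against 16.3% and 19.2% of all genes in that fit. MTFMT, which formylates the initiator methionyl-tRNA of mitochondria, had 7.36 and 7.81 CPM in DMSO and 20.2 and 17.7 CPM with Neoribocic, a change of 1.32 ± 0.23 (edgeR). Its change with the offsets was 1.56. MARS2, which supplies that methionyl-tRNA, did not pass the test, with 13.5 and 8.90 CPM against 11.8 and 12.9 CPM. DTD2, a deacylase that clears mischarged tRNA, rose by 0.69 ± 0.23. QRSL1, a subunit of the amidotransferase that makes mitochondrial glutaminyl-tRNA from the product of EARS2, had 16.5 and 14.7 CPM against 9.28 and 9.88 CPM, a change of -0.70 ± 0.23 that was not called with the offsets (-0.13, adjusted p = 0.576).

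Some members share sequence with neighbours or copies. On the opposite strand, ARHGAP9 and DDIT3 overlap 12.4% of the exon bases of MARS1, and DDIT3 went from 10.4 and 8.63 CPM to 33.9 and 31.2 CPM. The part of such reads in the MARS1 value was not tested. GENCODE 29 also lists pseudogenes named after AARS1, CARS1, FARSB, GARS1, KARS1, NARS1, RARS1, WARS1, IARS2, TARS2 and WARS2, none of which has a row in the count table, so reads shared with them are uncertain.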

How the data were processed

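The authors deposited raw counts per Ensembl gene, whole numbers without normalization, in a table of 4 libraries. Per the labels' protocols, RNA was prepared with a kit for mRNA. Not given in the sources used here are the aligner, the counter, its strand setting and the human build, and the submitters' processing notes name the mouse builds GRCm38 and mm10 although the IDs are human, so no gene coordinates are given beyond RefSeq sequences. Even values made up 62.3% to 65.4% of counts below 20 and 50.3% to 51.3% of counts of 20 to 200, so the totals may overstate the counting precision.

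Tests used edgeR 4.0.16 in R 4.3.3 (filterByExpr, TMM, robust quasi-likelihood, group as the only term), with Benjamini-Hochberg adjustment over 13879 genes and a threshold of 0.05. The SE is the size of the log2 fold change divided by the square root of F. Length and GC content came from the principal transcripts of GENCODE 29, and the offsets from a smooth of both per library (mgcv 1.9-3). Pair ratios were tested by exact permutation over the libraries, and Spearman correlations were computed with scipy 1.17.1. The edgeR code was tested on simulated data. Alternatives were other scalings, filters, DESeq2 1.42.0, limma-voom (limma 3.58.1), a replicate block, halved counts and each library left out. All 35 members could be named, with values per library for called members and their counterparts. The members and lists were chosen with earlier results of these data known.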

Additional observations from a re-analysis of the deposited data

How the results depend on the processing

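The counts of synthetases called (cytosolic 4 higher and 5 lower, mitochondrial 3 and 2, all genes 5610) stayed within 1.5 times under 11 of the 17 alternatives run over all genes, among them DESeq2, limma-voom and halved counts. Upper-quartile scaling gave 7 cytosolic genes higher, and the length and GC offsets gave 2. Upper-quartile scaling moved the median of all genes to 0.13 with 56.8% of calls higher, and plain library totals to 0.18 with 59.6%, against 0.01 and 47.2% with TMM and 45.9% with the offsets. At a threshold of 0.01 the calls were 1 cytosolic higher, 5 cytosolic lower, 1 mitochondrial higher, 1 mitochondrial lower and 2883 in all. Leaving out each library gave 1 to 4 cytosolic genes higher, 4 to 5 lower, 1 to 2 mitochondrial genes higher, 1 to 2 lower, and 2468 to 4536 genes in all, the fewest without Neoribocic replicate 1. Each of these fits has a group of 1 library, assumed to vary like the other group. SARS1, EPRS1, IARS1, FARSB, LARS1 and HARS2 kept their calls under all 17 alternatives.

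Some uncalled genes changed sign. With the offsets FARSA was -0.46, NARS1 0.02, QARS1 -0.04, TARS1 0.16, AARS2 -0.03, CARS2 -0.38 and FARS2 -0.12. With the offsets and the replicate block they were -0.46 for FARSA, 0.03 for NARS1, -0.04 for QARS1, 0.18 for TARS1, -0.37 for CARS2 and -0.16 for FARS2. TARS2 was 0.11 with upper quartiles and 0.15 with library totals. With each library left out in turn, values ran from -0.04 to 0.17 for GARS1, -0.03 to 0.21 for CARS2, -0.11 to 0.83 for FARS2, -0.11 to 0.47 for MARS2, -0.07 to 0.04 for TARS2 and -0.48 to 0.01 for YARS2. The cause was not tested.

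Whether the replicate numbers pair the samples was not settled. Deviations of same-numbered libraries correlated at -0.05, and 2 pairs are too few to decide it. The replicate block gave 5594 calls in all and 4, 5, 2 and 2 for the synthetase counts, with PARS2 lost (adjusted p = 0.0525).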
